A study of Mus musculus with 8 samples.

Results

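The genes described here encode the proteins of the cytoplasmic ribosome. They were taken by symbol, as names that begin with Rps, Rpl or Rplp followed by a number, plus Rpsa, with at least 50 UMIs over the cells of both libraries. A UMI (unique molecular identifier) stands for 1 captured transcript molecule. Of 27998 genes listed, 85 matched by symbol and 82 had the UMIs: 32 of the small subunit, 47 of the large subunit and the 3 stalk genes Rplp0, Rplp1 and Rplp2. Below the minimum were Rpl3l with 9 UMIs, of which 7 were in the ShhN and 2 in the WT library, and Rpl10l and Rpl39l with 0. The members with fewest UMIs were far above it. They were Rpl29 with 2283 UMIs, Rpl6l with 5612, a processed pseudogene in the annotation used here, and Rpl7l1 with 7974. The 82 genes lay on 19 chromosomes, with 14 of them on chromosome 7. Fau also encodes a ribosomal protein, but its symbol does not match, and it is given below among the other translation genes.

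The study asked, per its title, how sonic hedgehog acts from outside on the lineage progression of cortical stem cells. ShhN, the signalling fragment of that protein, was brought by in utero electroporation into the cortex of CD1 mouse embryos at E13.5 (embryonic day), and the cortex was taken at embryonic day 16.5. It was set against the cortex of wild type (WT) littermates of the same age. The labels do not say whether the WT embryos received another plasmid. Both were dissected under a fluorescence stereoscope, dissociated with papain and run on the 10x Chromium droplet system, with 4 samples a group. The 4 samples of a group share 1 matrix and could not be told apart, so each group is 1 library with no replicate and no test was made. Electroporation reaches a part of the progenitors. At least 1 Shh UMI was seen in 607 of 8314 ShhN cells and in 0 of 7233 WT cells.

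The ShhN library held 69470062 UMIs and the WT library 63760199. After doublets were taken out, 8068 ShhN cells and 6953 WT cells remained, and before that step their median depth was 6758.5 UMIs in ShhN and 6385 UMIs in WT cells. The libraries shared 79 cell barcodes, 0.950% of the ShhN and 1.09% of the WT cells. Cells were put into classes by UMIs of marker genes, none of them ribosomal. Class names below stand for "radial glia-like" and so on. In 22 Leiden clusters made from the same cells, clusters of the same names were found for each class used here. They were named from the same marker lists, so the names are no independent check. Sizes could differ, with 712 ShhN non-dividing intermediate progenitors by markers and 135 by cluster. The members are highly expressed, and 78 of them had over 50000 UMIs. Among those with most UMIs were Rpl41 (588113), Rpl13, Rps19 and Rps14 (405410).

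A ribosome pairs a small subunit, which reads the mRNA, with a large subunit, which joins amino acids. Their proteins are made in near equal numbers and are assembled with ribosomal RNA in the nucleolus. Most ribosomal protein mRNAs begin with a terminal oligopyrimidine (TOP) tract, a C followed by a run of C and T, through which mTOR signalling sets their translation. In the developing cortex, radial glia are the stem cells of the ventricular zone. They give rise to Eomes-expressing intermediate progenitors, whose daughters migrate out as neurons of the deep and upper layers.

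The following stretches show the start sites of the genes on which the results turn. They are the paralog pairs Rpl22l1 with Rpl22 and Rps27l with Rps27, Rpl38 and Rps7, Rpl13 as a gene near the average of the group, and Rpl26. Each runs from 30 bases before the annotated start to 20 bases after it, on the gene's own strand, from RefSeq on GRCm38.p6. Capitals mark runs of 8 or more pyrimidines that begin with C.
Rpl22l1, chr3:28805478-28805527, plus strand: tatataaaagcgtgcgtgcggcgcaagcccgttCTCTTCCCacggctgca
Rpl22, chr4:152325696-152325745, plus strand: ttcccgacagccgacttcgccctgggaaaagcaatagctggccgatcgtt
Rps27l, chr9:66946056-66946105, plus strand: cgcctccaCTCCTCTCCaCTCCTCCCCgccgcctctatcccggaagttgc
Rps27, chr3:90213629-90213678, minus strand: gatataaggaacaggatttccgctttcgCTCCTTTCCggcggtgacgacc
Rpl38, chr11:114668550-114668599, plus strand: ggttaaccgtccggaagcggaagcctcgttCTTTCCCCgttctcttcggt
Rps7, chr12:28635934-28635983, minus strand: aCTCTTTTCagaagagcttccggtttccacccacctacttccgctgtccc
Rpl13, chr8:123102320-123102369, plus strand: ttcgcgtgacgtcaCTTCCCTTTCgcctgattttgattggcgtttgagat
Rpl26, chr11:68901536-68901585, plus strand: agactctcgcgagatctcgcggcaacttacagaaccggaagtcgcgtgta
In Rpl38 the run begins at the annotated start itself, as in the textbook TOP mRNA. In Rpl22l1 it begins 3 bases after it and in Rps27 2 bases before it. The stretches of Rpl22 and Rpl26 hold no such run.

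RefSeq windows of 300 bases were found for 61 of the 82 members, with 72 start sites in all. A sense-strand run of this kind within 50 bases of the start was present in 57 of the 72 windows (79.2%), against 28.8% of the 32851 windows of all genes. The shorter motif CTTTCC, which can lie inside such a run, was found there in 30.6% of member windows against 4.69% of all. CCGGAAG, the core bound by ETS-family factors, searched on both strands over the whole window, was found in 36.1% against 8.86%. It is legible in the Rpl38, Rps27l and Rpl26 stretches above and, on the opposite strand, in that of Rps7. TATAAA within the 50 bases before the start was found in 1.39% of member windows against 2.63% of all, and its 1 member is Rpl22l1. These matches describe letters near annotated starts.

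Transcripts of the 82 genes took up a larger share of UMIs in radial glia and non-dividing intermediate progenitors than in neurons, in both libraries. In radial glia the summed share was 23.3% in ShhN (95% interval 23.2 to 23.3, 316 cells) and 20.99% in WT (20.9 to 21.1, 161 cells). In dividing intermediate progenitors it was 19.4% in ShhN (396 cells) and 17.6% in WT (92 cells), and in the other intermediate progenitors 22.2% in ShhN (712 cells) and 20.5% in WT (664 cells). Migrating neurons had 17.9% in ShhN (706 cells) and 15.3% in WT (698 cells). Upper layer neurons had 17.9% in ShhN (2284 cells) and 16.3% in WT (2288 cells), and deep layer neurons 19.3% in ShhN (1738 cells) and 17.1% in WT (1390 cells). Radial glia and non-dividing intermediate progenitors stood above the 3 neuron classes in each library. Small-subunit genes made up 8.08% of UMIs in ShhN and 7.22% in WT excitatory neurons, against 10.2% in ShhN and 9.15% in WT radial glia, and large-subunit genes 9.74% in ShhN and 8.78% in WT neurons, against 12.04% in ShhN and 10.9% in WT radial glia. The UMIs of the small over those of the large subunit stayed close, at 0.830 in ShhN and 0.822 in WT neurons, against 0.851 in ShhN and 0.837 in WT radial glia. The exact Clopper-Pearson intervals span at most 0.2 points in these lineage classes and cover counting error alone, so they say nothing about differences between embryos or dissections.

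**Figure D1:**
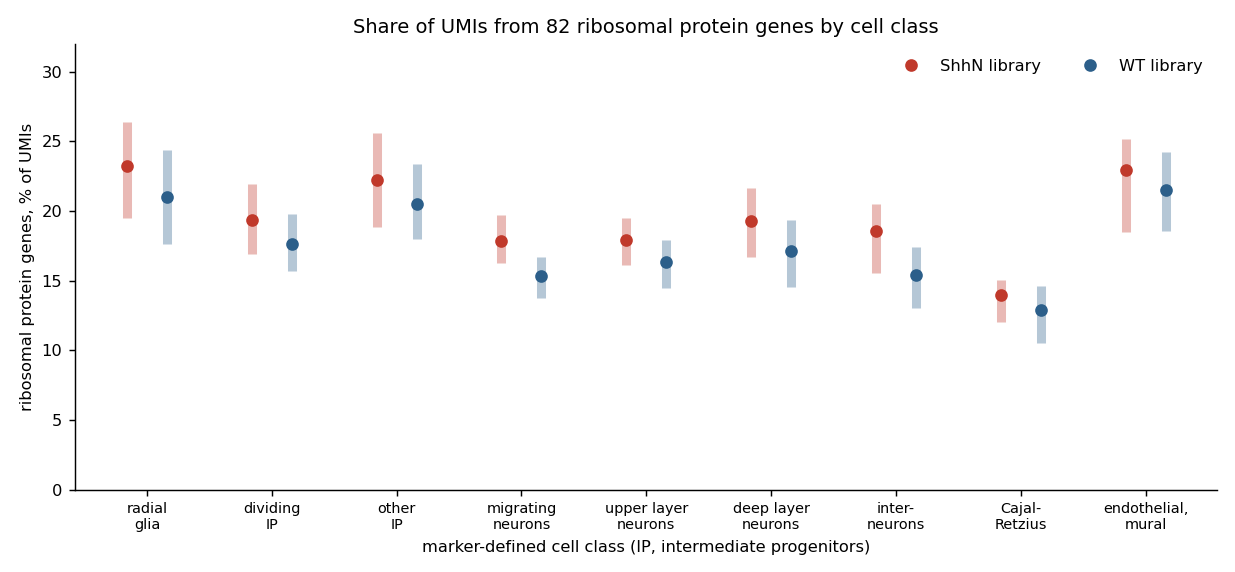
The 82 ribosomal protein genes as a percent of all UMIs, by cell class in lineage order, for the ShhN and the WT library. Points are shares of summed UMIs and bars span the middle 50% of single cells. Radial glia reach 23.3% in ShhN and 20.99% in WT, while migrating neurons lie at 17.9% in ShhN and 15.3% in WT.

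Single cells overlapped between classes, more for some pairs of classes than for others. The middle 50% of radial glia had shares of 19.5% to 26.4% in ShhN and 17.7% to 24.4% in WT. Upper layer neurons had 16.1% to 19.5% in ShhN and 14.5% to 18.0% in WT, which barely met the range of radial glia. Deep layer neurons reached further into it, with 16.7% to 21.7% in ShhN and 14.5% to 19.3% in WT. Radial glia were also split by UMIs of dividing-cell markers. Dividing radial glia had 22.0% in ShhN (149 cells) and 19.4% in WT (58 cells), and the other radial glia 24.9% in ShhN (167 cells) and 22.4% in WT (103 cells). Dividing progenitors thus had the lower share in both progenitor types and both libraries. A share is relative to a cell's other transcripts, and as molecules the order among radial glia was the reverse. The median was 1712 member UMIs per dividing radial glial cell in ShhN and 1473.5 in WT, against 1418 in ShhN and 1320 in WT in the others. Dividing radial glia were deeper, with 8589 UMIs per cell in ShhN and 8707 in WT, against 6052 in ShhN and 5879 in WT. Between progenitors and neurons, too, molecules did not follow the order of shares. Median member UMIs per cell were 1572.5 in ShhN and 1347 in WT radial glia, and 1313 and 1208 in non-dividing intermediate progenitors. Deep layer neurons had 1406 in ShhN and 1343 in WT, upper layer neurons 1320.5 and 1163, and migrating neurons 1069 and 860.

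Cells outside this lineage lay on both sides of it. Glial or olfactory bulb progenitors, which express Olig1, Olig2 or Egfr, had 24.7% in ShhN (102 cells) and 25.0% in WT (17 cells). Endothelial and mural cells had 22.9% in ShhN (38 cells) and 21.5% in WT (51 cells). Cajal-Retzius cells, the early-born Reelin-secreting neurons of the outermost layer, had 13.9% in ShhN (40 cells) and 12.9% in WT (83 cells), the lowest of the classes given here in each library. Cajal-Retzius cells were also deep, at a median of 9084 UMIs per cell in ShhN and 9077 in WT, so that their median of 1118.5 member UMIs in ShhN and 1102 in WT was within the range of the other neurons.

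Classes differ in depth, and the markers that define them are easier to see in deep cells, so the shares were set out again within bins of UMIs per cell. At 2300 to 4500, 4500 to 6750, 6750 to 9000 and over 9000 UMIs, radial glia had 22.04%, 23.1%, 22.6% and 24.1% in ShhN and 22.6%, 20.9%, 19.5% and 21.6% in WT. Deep layer neurons had 14.8%, 18.6%, 20.3% and 19.0% in ShhN and 10.7%, 16.8%, 18.5% and 17.0% in WT. Migrating neurons had 18.8%, 18.4%, 17.2% and 16.0% in ShhN and 15.6%, 15.7%, 14.97% and 14.8% in WT. Radial glia and non-dividing intermediate progenitors were above each of the 3 neuron classes in 8 of 8 pairs of a library and a bin. Dividing intermediate progenitors were above these classes at 4500 to 6750 and over 9000 UMIs, but not at 6750 to 9000. There they had 20.1% in ShhN and 16.8% in WT, below deep layer neurons in both libraries and below upper layer neurons (16.9%) in WT. No value is given for them at 2300 to 4500 UMIs. The share of deep layer neurons was lowest in their shallowest cells, whereas that of migrating neurons was lowest in their deepest.

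**Figure D2:**
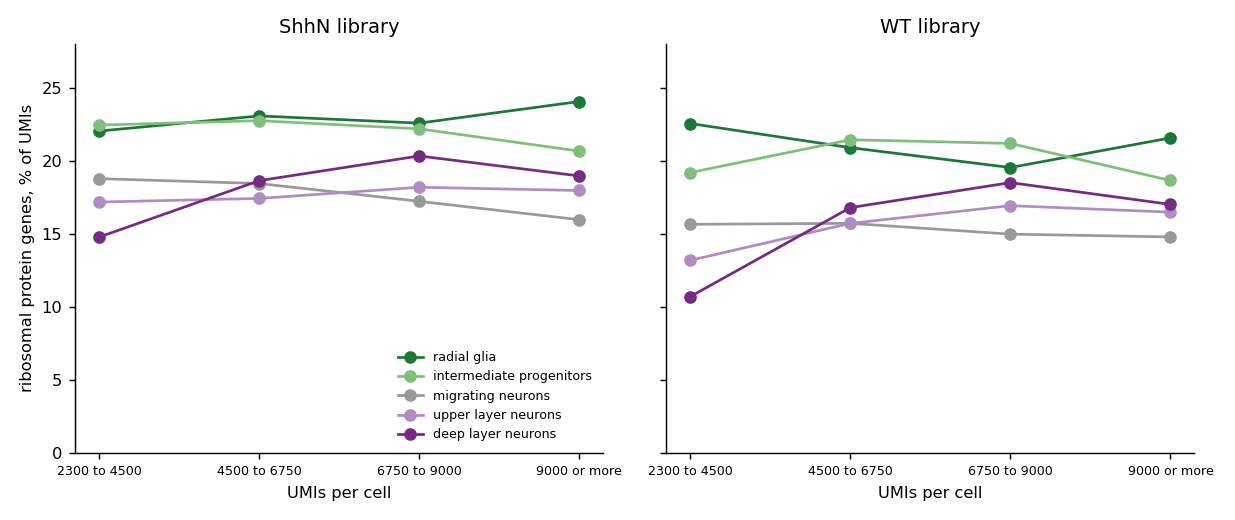
Ribosomal protein share of UMIs (percent) within 4 bins of UMIs per cell, with the ShhN library beside the WT library. Lines are cell classes of the lineage, and dividing intermediate progenitors are not drawn. Radial glia and non-dividing intermediate progenitors stay above the neuron classes in each bin, and the distance to deep layer neurons is widest at 2300 to 4500 UMIs, where these have 14.8% in ShhN and 10.7% in WT.

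Set gene by gene, excitatory neurons (upper and deep layer classes together) had modestly less of most members than radial glia. In CPM, a gene's UMIs scaled to the same total in each class and library, the summed members in neurons were 0.795-fold those in radial glia in ShhN, a log2 ratio of -0.33, and 0.792-fold in WT, a log2 ratio of -0.34. The ratio was below 0 for 77 of 82 members in ShhN (93.9%) and for 80 in WT (97.6%), against 52.8% and 52.1% of all genes tested in ShhN and WT. The median member was at -0.35 in ShhN and -0.36 in WT, where the median of all genes was -0.06 in ShhN and -0.05 in WT. Of other genes as abundant as the members, 32.5% of 166 in ShhN and 31.7% of 183 in WT had a ratio below 0. Their medians were 0.28 in ShhN and 0.38 in WT. Abundance was taken over both classes together, where neurons held 30592321 UMIs in ShhN and 27479463 in WT. Radial glia held 2412078 UMIs in ShhN and 1388801 in WT. That set thus favours genes high in neurons and is no neutral measure for the members.

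A gene was counted as lower or higher where it had 50 UMIs over both classes, its log2 ratio was 0.5 or more from 0, and its exact 95% interval stayed 0.25 or more from 0 on that side. By this rule 17 members were lower in ShhN and 15 in WT (20.7% in ShhN and 18.3% in WT), and 0 were higher in either. Over all genes the rule called 26.2% lower and 20.9% higher in ShhN, and 21.6% lower and 17.3% higher in WT. Among the other genes as abundant as the members, a set that favours genes high in neurons, it called 11.4% lower in ShhN and 10.4% in WT. The share of members called lower was thus below that of all genes. The 13 members lower in both libraries were Rps27l, Rpl22l1, Rps2, Rplp1, Rps12, Rpsa, Rpl8, Rpl35a, Rpl14, Rps24, Rpl12, Rps18 and Rpl18. They make up 15.9% of the members, where 18.4% of 10832 genes tested in both were lower in both. With TMM scaling, which moved the median of all genes by 0.12 in ShhN and 0.10 in WT, the summed ratio was -0.22 in ShhN and -0.24 in WT and the members lower numbered 8 in ShhN and 7 in WT. With classes drawn from cells thinned to 2300 UMIs the ratio was -0.18 in ShhN and -0.25 in WT, with 6 members lower in ShhN. The share of all genes called lower in these alternatives is not given.

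**Figure D3:**
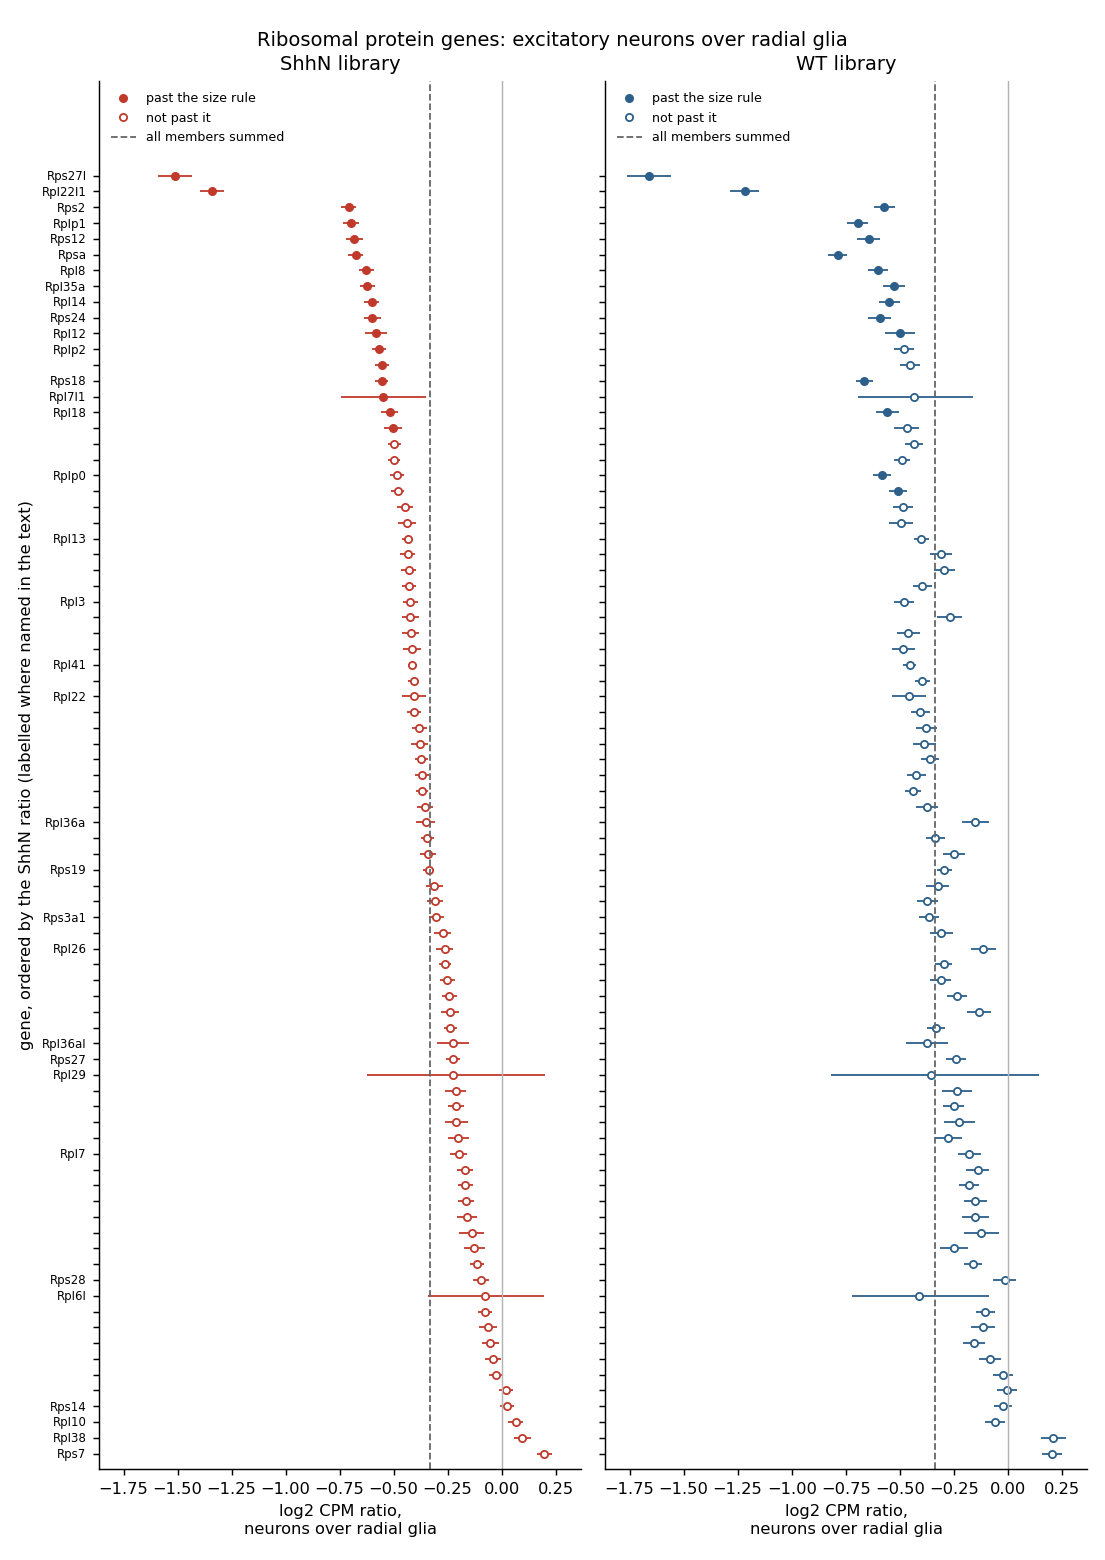
Log2 ratio of CPM, excitatory neurons over radial glia, for the 82 members in the ShhN and the WT library, each with its 95% counting interval. Genes named in the text are labelled, filled points pass the size rule, and the dashed line marks the summed members, at -0.33 in ShhN and -0.34 in WT. Rps27l and Rpl22l1 lie apart at the low end, and Rps7 and Rpl38 at the high end.

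Of these, the paralogs Rps27l and Rpl22l1 stood apart. Rps27l (chromosome 9, 66946086 to 66949516, GRCm38, plus strand), a paralog of the small-subunit gene Rps27 and known as a p53 target, had 234 CPM in neurons against 668 CPM in radial glia of ShhN, a log2 ratio of -1.51 (-1.59 to -1.43). In WT it had 208 CPM in neurons against 659 CPM in radial glia, -1.66 (-1.76 to -1.56). Rpl22l1 (chromosome 3, 28805436 to 28807424, plus strand), a paralog of the RNA-binding large-subunit gene Rpl22, had 505 CPM in neurons against 1281 CPM in radial glia of ShhN, -1.34 (-1.40 to -1.29), and 605 CPM against 1408 CPM in WT, -1.22 (-1.29 to -1.15). Neurons were lower than radial glia for both genes in both libraries. These are the members that also passed a rule of 2-fold, 2 in each library. The share of all genes past that rule is not given.

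The next lowest were far closer to the rest. Rpsa, a small-subunit protein also known as the laminin receptor, had 1906 CPM in neurons against 3046 CPM in radial glia of ShhN (-0.68) and 1749 CPM against 3019 CPM in WT (-0.79). Rps2, which lies where mRNA enters the small subunit, had 1876 CPM in neurons against 3064 CPM in radial glia of ShhN (-0.71) and 1881 CPM against 2796 CPM in WT (-0.57). Rplp1, a protein of the stalk that recruits elongation factors, had 1771 CPM in neurons against 2870 CPM in radial glia of ShhN and 1747 CPM against 2829 CPM in WT, -0.70 in each. Neurons were the lower side in each of these pairs. The stalk genes had a median of -0.57 in ShhN and -0.58 in WT, the small-subunit genes -0.39 in ShhN and -0.36 in WT, and the large-subunit genes -0.27 in ShhN and -0.33 in WT.

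At the other end, 5 members in ShhN and 2 in WT had ratios above 0, and none passed the rule. Rps7 (chromosome 12, 28630854 to 28635953, minus strand), of the small subunit, had 3613 CPM in neurons against 3152 CPM in radial glia of ShhN (0.20) and 3284 CPM against 2848 CPM in WT (0.21). Rpl38 (chromosome 11, 114668524 to 114672331, plus strand), a large-subunit gene whose loss in mice disturbs the patterning of the axial skeleton, had 2477 CPM in neurons against 2318 CPM in radial glia of ShhN (0.10) and 2162 CPM against 1869 CPM in WT (0.21). Both genes kept ratios above 0 in each of the 11 settings tried, between 0.12 and 0.43 in ShhN and 0.14 and 0.35 in WT for Rps7, and between 0.02 and 0.31 in ShhN and 0.15 and 0.39 in WT for Rpl38. Rps14 was at 0.02 in ShhN and -0.02 in WT, and Rpl10, one of the last proteins to join the large subunit, at 0.06 in ShhN and -0.06 in WT. Members with a pyrimidine run within 50 bases on either side of an annotated start had a median of -0.35 in ShhN and -0.33 in WT (51 members). Those without one had -0.39 in ShhN and -0.39 in WT (10 members). Such a run need not lie in the mRNA, as the printed run of Rps7 begins 29 bases before the start.

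Many members have near copies elsewhere in the genome, and the labels do not say how reads were assigned among them. Of the 81 members with a coding transcript in the annotation, 55 share at least 1 stretch of 60 bases within their last 300 bases with another annotated gene, and 35 share over 50% of them. The shared part was 100% for Rpl29, Rps27, Rpl10 and Rpl36a, 61.8% for Rpl22l1, 63.9% for Rpl38, 73.0% for Rps2 and 4.15% for Rps7, and 0% for Rps27l, Rpl22 and Rpsa. Counts of the genes with large shared parts are uncertain to that degree, and whether copies moved their ratios was not tested.

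The difference was not spread evenly along the lineage. Intermediate progenitors against radial glia differed little as a sum, by a log2 ratio of -0.07 in ShhN and -0.03 in WT. Rpl22l1 was past the rule in both libraries at this step (-0.66 in ShhN and -0.55 in WT), as was Rps27l in WT (-0.55), so that 1 member in ShhN and 2 in WT were lower where 16% and 12.9% of all genes were. Dividing against other intermediate progenitors gave -0.20 in ShhN and -0.22 in WT, with 0 and 2 members lower (Rps18 and Rps27 in WT) against 8.69% and 7.06% of all genes.

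Among the steps compared, the sum differed most from intermediate progenitors to migrating neurons. Migrating neurons over intermediate progenitors had a log2 ratio of -0.31 in ShhN and -0.42 in WT, and 81 of 82 members were below 0 in each library. At this step 48.1% of all genes were below 0 in each library, and 46.3% of other abundant genes in ShhN and 45.5% in WT. There 3 members were lower in ShhN (Rpl22l1 -0.68, Rpl12 -0.55 and Rplp1 -0.52) (3.66% of members) and 20 in WT (24.4%), led by Rpsa and Rpl22l1 at -0.67 and Rpl3 at -0.65, against 7.25% of all genes in ShhN and 8.91% in WT, and 4.21% of other abundant genes in ShhN and 6.10% in WT. Upper layer over migrating neurons gave 0.00 in ShhN and 0.09 in WT, and deep over upper layer neurons 0.10 in ShhN and 0.07 in WT. Over the 6 lineage classes, 55 members in ShhN and 39 in WT had their highest CPM in radial glia, and 21 in ShhN and 37 in WT had it in non-dividing intermediate progenitors. The lowest was in migrating neurons for 32 members in ShhN and 58 in WT. The same counts over all genes are not given, so these describe the members without a background. The median ratio of a member's highest to its lowest class was 1.37-fold in ShhN and 1.41-fold in WT.

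Cajal-Retzius cells did not simply extend this order. Over excitatory neurons their summed log2 ratio was -0.41 in ShhN and -0.37 in WT, with 25 members (30.5%) lower in ShhN and 19 (23.2%) in WT, among them Rplp0 (-0.93 in ShhN and -0.68 in WT) and Rps3a1 (-0.87 in ShhN and -0.68 in WT). Over all genes 3.79% were lower in ShhN and 6.11% in WT. Among other genes as abundant as the members over both classes together, 31.6% were lower in ShhN and 27.7% in WT. Excitatory neurons held most UMIs of this comparison, 30592321 against 351170 in ShhN and 27479463 against 760970 in WT. That set thus favours genes high in excitatory neurons, so the members' share is not read against it. Rpl22l1 went the other way and was higher in Cajal-Retzius cells in both libraries (0.97 in ShhN and 0.66 in WT), and Rps27l was higher in WT (0.65), where 10.4% of all genes were higher in ShhN and 13.4% in WT. These values rest on 40 ShhN and 83 WT Cajal-Retzius cells.

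Pairs of paralogs were also read as a ratio within the pair, which does not depend on the scaling of a class. Rpl22l1 made up 53.3% of the UMIs of the Rpl22 pair in ShhN radial glia (52.0 to 54.5) and 58.8% in WT radial glia (57.1 to 60.5). In the non-dividing intermediate progenitors it made up 42.2% in ShhN and 49.5% in WT, in migrating neurons 36.4% in ShhN and 46.9% in WT, and in deep layer neurons 35.7% in ShhN (35.0 to 36.4) and 42.8% in WT (42.0 to 43.6). Radial glia had the highest percentage of the lineage in both libraries and deep layer neurons the lowest. Cajal-Retzius cells had 60.9% in ShhN and 65.9% in WT, above radial glia. In each lineage class the percentage was lower in ShhN than in WT, and the intervals did not overlap except in dividing intermediate progenitors, at 50.1% in ShhN and 51.2% in WT.

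In the Rps27 pair the percentage was likewise higher in progenitors than in neurons. Rps27l made up 15.1% of the pair in ShhN radial glia and 17.3% in WT radial glia, and 15.9% in ShhN and 19.8% in WT in dividing intermediate progenitors. In migrating neurons it made up 10.3% in ShhN and 10.7% in WT, and in deep layer neurons 6.21% in ShhN and 6.49% in WT. Rpl36al, a retrogene copy of Rpl36a, showed no such order, with 26.5% of its pair in ShhN neurons and 25.8% in WT neurons, against 24.9% in ShhN radial glia and 28.9% in WT radial glia. Rpl7l1, whose product is a nucleolar relative of Rpl7, made up 3.04% of its pair in ShhN neurons and 3.45% in WT neurons, against 3.84% in ShhN radial glia and 4.08% in WT radial glia. Percentages in a pair follow UMIs and do not compare transcript levels per length.

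**Figure D4:**
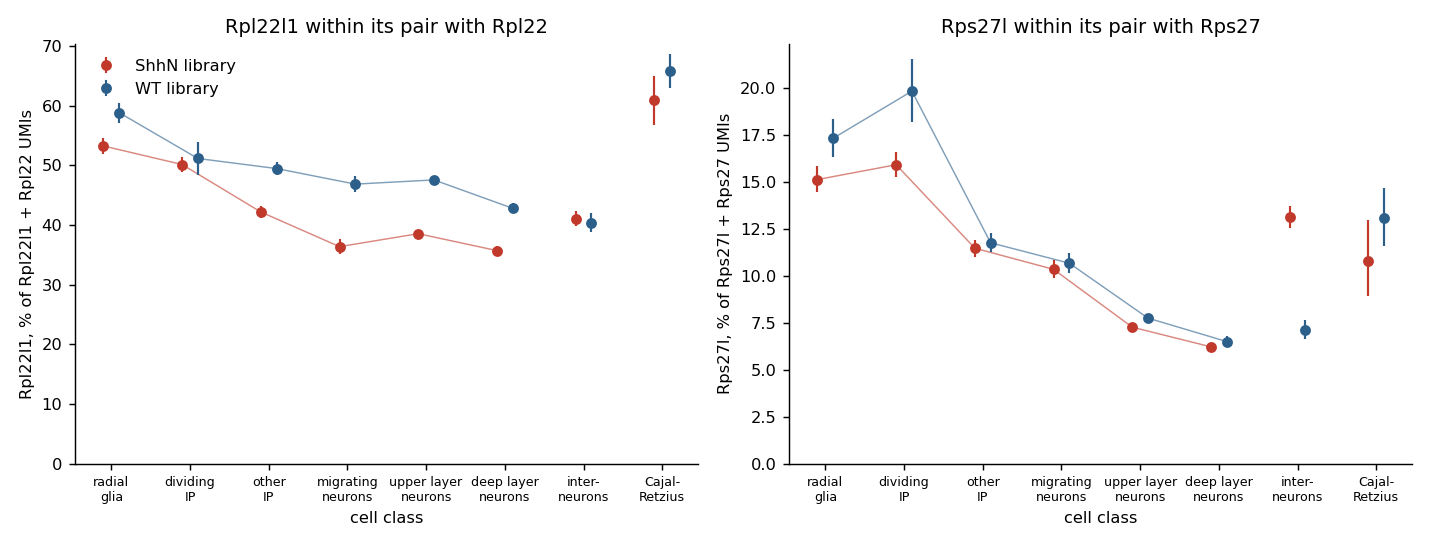
Percent of a paralog pair's UMIs that come from the less usual paralog, by cell class, for the ShhN and the WT library, with exact 95% intervals. Rpl22l1 has 53.3% of its pair in ShhN and 58.8% in WT radial glia, against 35.7% in ShhN and 42.8% in WT deep layer neurons.

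Other genes of translation were set beside the members for neurons over radial glia, where the rule called 26.2% of all genes lower in ShhN and 21.6% in WT. Ribosome biogenesis factors, which process ribosomal RNA and assemble subunits, had a median log2 ratio of -0.51 in ShhN and -0.48 in WT, with 14 of 30 lower in ShhN and 11 of 30 in WT. Among them were the assembly factor Ltv1 (-2.09 in ShhN and -1.88 in WT) and the pseudouridine synthase Dkc1 (-1.52 in ShhN and -1.31 in WT). Rrn3, an initiation factor of RNA polymerase I, was the 1 that was higher (0.98 in ShhN and 1.21 in WT). Mitochondrial ribosomal proteins, which form a separate ribosome, had medians of -0.44 in ShhN and -0.43 in WT, with 25 of 76 lower in ShhN and 29 of 76 in WT, led by Mrpl39 (-1.52 in ShhN and -1.72 in WT). Mrpl23 was the 1 that was higher (0.60 in ShhN and 0.52 in WT).

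Initiation factors had medians of -0.31 in ShhN and -0.33 in WT, with 3 of 24 lower in each library. Eif4a2, a helicase of the cap-binding complex, was higher in neurons (1.75 in ShhN and 1.57 in WT). Elongation factors and other TOP mRNAs had medians of -0.12 in ShhN and -0.07 in WT, with 5 of 21 lower in ShhN and 4 in WT. Neither list had a larger part lower than all genes, at 26.2% in ShhN and 21.6% in WT. The lowest of the elongation factors and other TOP mRNAs was Vim (-4.98 in ShhN and -5.42 in WT), which is also a marker of radial glia. The elongation factor Eef2 was higher (0.68 in ShhN and 0.52 in WT). The ribosomal gene Fau (-0.12 in ShhN and 0.03 in WT) did not pass the rule. Of the mTOR and Myc regulators, Eif4ebp1, which holds back cap-dependent translation, was lower in neurons (-3.64 in ShhN and -2.98 in WT), and Mycl was higher (1.15 in ShhN and 1.58 in WT).

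Between the libraries, the members' share was higher in ShhN than in WT in each class of the lineage. The difference was 2.27 points in radial glia, 1.77 in dividing and 1.67 in other intermediate progenitors, 2.51 in migrating neurons, 1.61 in upper layer and 2.16 in deep layer neurons. Within the bins of depth, ShhN was above WT in each bin given for these classes except for radial glia at 2300 to 4500 UMIs, with 22.04% in ShhN (38 cells) and 22.6% in WT (24 cells). The libraries also filled the clusters of migrating neurons unequally. A migrating cluster led by Tfap2d held 950 ShhN and 128 WT cells, with 18.1% in ShhN and 16.1% in WT, and one with Unc5d among its leading genes held 476 ShhN and 835 WT cells, with 20.7% in ShhN and 17.1% in WT. Over all cells the share was 19.1% in ShhN and 16.9% in WT. It was also higher in ShhN in 19 of 19 Leiden clusters with at least 20 cells of each library, by 0.741 to 4.25 points with a median of 1.95. The free RNA of the droplets without cells, measured in barcodes of 1 to 50 UMIs, differed likewise, with 17.4% in ShhN and 14.6% in WT. Glial or olfactory bulb progenitors by markers, with 17 WT cells, were the exception among the classes given, at -0.315 points. With 1 library a group, treatment and library cannot be told apart.

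As log2 ratios, ShhN over WT, the summed members were at 0.15 in radial glia, 0.11 in intermediate progenitors, 0.22 in migrating neurons and 0.15 in excitatory neurons. With radial glia taken from the Leiden clusters the ratio there was 0.08, and with classes from thinned cells 0.07. The ratio was above 0 for 77 of 82 members in radial glia (93.9%, against 46.7% of all genes) and for 78 in excitatory neurons (95.1%, against 33.7%). No member passed the size rule in radial glia, in intermediate progenitors, in migrating neurons or in excitatory neurons. Over all genes 2.71% were higher and 3.74% lower in ShhN radial glia, 2.58% higher and 3.96% lower in ShhN intermediate progenitors, 1.34% higher and 5.53% lower in ShhN migrating neurons, and 1.09% higher and 3.15% lower in ShhN excitatory neurons.

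**Figure D5:**
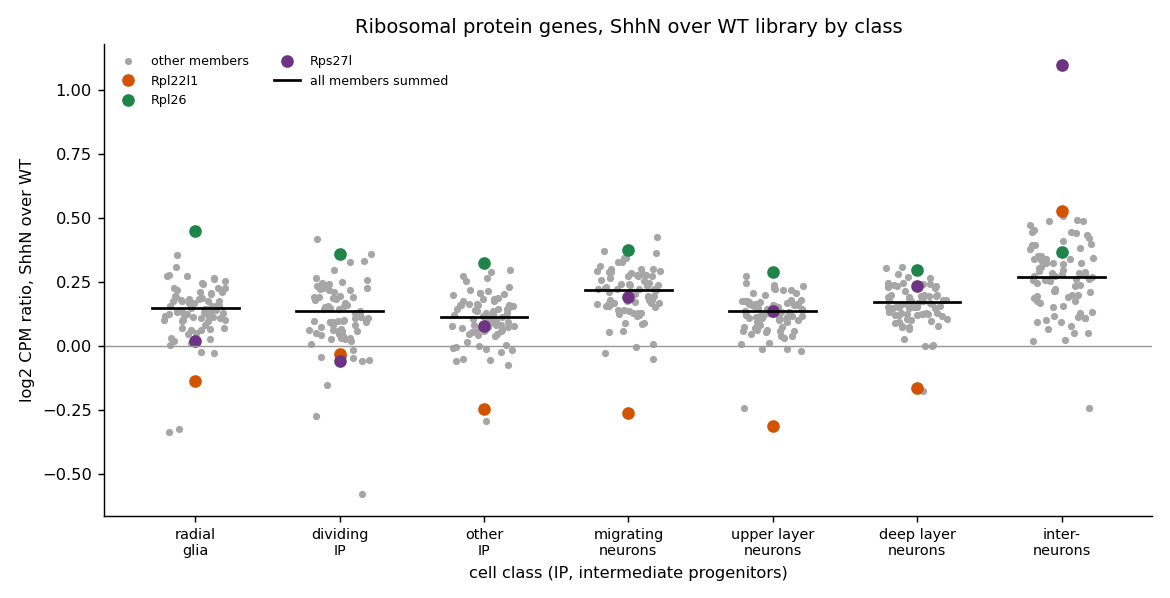
Log2 ratio of CPM, ShhN over WT, of the members in each cell class. Points are genes, bars mark the summed members, and Rpl22l1, Rpl26 and Rps27l are coloured. Most points lie above 0 in each class, with summed values of 0.15 in radial glia and 0.15 in excitatory neurons, while Rpl22l1 lies below 0 in the lineage classes.

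Rpl26 (chromosome 11, 68901583 to 68906989, plus strand), a large-subunit protein known to bind p53 mRNA, had the highest ratio in radial glia, intermediate progenitors and excitatory neurons. It had 2408 CPM in ShhN and 1763 CPM in WT radial glia, 0.45 (0.38 to 0.52), and 2422 CPM in ShhN and 1932 CPM in WT intermediate progenitors, 0.33. In excitatory neurons it had 2005 CPM in ShhN and 1630 CPM in WT, 0.30. Rps28 followed with 0.36 in radial glia, 0.30 in intermediate progenitors and 0.28 in excitatory neurons, and Rpl38 had 0.31 in radial glia and 0.27 in intermediate progenitors. None of these passed the rule.

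Rpl22l1 ran against most members. It had 1281 CPM in ShhN and 1408 CPM in WT radial glia, -0.14, and 808 CPM in ShhN and 959 CPM in WT intermediate progenitors, -0.25. In excitatory neurons it had 505 CPM in ShhN and 605 CPM in WT, -0.26 (-0.29 to -0.23). It was the lower in ShhN by each of the 11 settings tried, between -0.22 and -0.10 in radial glia and between -0.33 and -0.19 in excitatory neurons. Its partner Rpl22 had 1124 CPM in ShhN and 985 CPM in WT radial glia (0.19), and 848 CPM in ShhN and 717 CPM in WT excitatory neurons (0.24). The pair thus differed between the libraries in opposite directions, with neither gene past the rule. Rpl29 was at -0.34 in radial glia on 55 UMIs in ShhN and 40 in WT, too few to set it apart.

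The members' companions in translation were set out in the same way. For ShhN over WT in excitatory neurons, the median log2 ratio was 0.12 for elongation factors and other TOP mRNAs, -0.02 for ribosome biogenesis, 0.04 for mitochondrial ribosomal proteins, 0.04 for initiation factors and -0.09 for mTOR and Myc regulators, where the median of all genes was -0.08. In radial glia these medians were 0.10, -0.01, -0.02, 0.02 and 0.02 in the same order, against -0.03 for all genes. None of these genes passed the rule in excitatory neurons.

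Interneurons are here cells with interneuron markers, whatever their maturity or place of birth. They had a summed share of 18.6% in ShhN (597 cells) and 15.4% in WT (780 cells). This is a difference of 3.17 points, and their cell medians differed by 2.27 points. In migrating neurons the summed shares differed by 2.51 points and the cell medians by 2.73. In interneurons 3 members were higher in ShhN by the rule and 0 lower, against 12% and 14% of all genes: Rps27l with 463 CPM in ShhN and 216 CPM in WT (1.10), Rpl22l1 (0.53) and Rpl35a (0.51). The class was made up differently in the libraries. A cluster led by Gsx2, Sp9 and Sp8, with a member share of 20.1%, held 335 ShhN and 10 WT cells. The cluster led by Nxph1, Lhx6 and Sst had 16.0% in ShhN (239 cells) and 15.3% in WT (596 cells). Dividing-cell markers summed to 1701 CPM in ShhN and 231 CPM in WT interneurons, and radial glia markers to 1226 CPM in ShhN and 546 CPM in WT. The part of such cells in the result was not tested.

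Within the ShhN library, cells with a Shh UMI did not have the higher share. In upper layer neurons it was 17.5% in the 250 cells with a Shh UMI and 18.0% in the 2034 without, in deep layer neurons 18.8% in 109 and 19.3% in 1629, and in migrating neurons 16.7% in 49 and 18.0% in 657. Non-dividing intermediate progenitors had 20.99% in 30 cells with a Shh UMI and 22.3% in 682 without. ShhN cells with and without a Shh UMI were thus both above the WT share in each of these classes. A Shh UMI is easier to see in a deep cell, and the upper layer cells with one had a median of 7716.5 UMIs against 7410 without.

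Globin transcripts, which come from blood, also differed between the libraries and enter the totals over which shares are taken. Globin genes had 1366 CPM in ShhN and 15281 CPM in WT radial glia, and 2045 CPM in ShhN and 5537 CPM in WT excitatory neurons. In radial glia 2 of 316 ShhN cells and 2 of 161 WT cells held over 1% globin, and without such cells the summed log2 ratio, ShhN over WT, was 0.13 in radial glia and 0.15 in excitatory neurons. Over the other nuclear genes alone, the ratio was 0.19 in radial glia and 0.18 in excitatory neurons.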

How the data were processed

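The deposited values are UMI counts per gene and droplet barcode, not normalized, with the samples of each group in 1 matrix. The submitters' processing notes name the build mm10 and the tools Cell Ranger, Seurat 3 and StringTie, without saying what each did. A matrix with a control prefix was taken as WT and one with an experimental prefix as ShhN. No column was left unmapped.

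Cells were barcodes with at least 2300 UMIs, 800 genes and at most 10% mitochondrial UMIs. Scrublet (scanpy 1.11.5) was run on each library, and the doublets it called were removed, 246 ShhN cells (2.96%) and 280 WT cells (3.87%). Classes followed each cell's UMIs summed over fixed marker lists. Radial glia had at least 8 UMIs over 10 genes and more than over the progenitor list. Intermediate progenitors had at least 6 UMIs over their list with 1 or more of Eomes, and were dividing with at least 5 UMIs over dividing-cell genes. Neurons had at least 10 UMIs over pan-excitatory genes and at least 4 over 1 layer or migration list, more than over the others. Vascular and Cajal-Retzius cells (5 UMIs), interneurons (4) and glial or olfactory bulb progenitors (3) were taken out first. Near the radial glia minimum, 18 ShhN and 8 WT cells lay within 1 UMI inside, and 245 ShhN and 110 WT cells within 2 UMIs outside. Within 2 UMIs outside the intermediate progenitor minimum lay 959 ShhN and 564 WT cells. Cells in no class, 953 in ShhN and 701 in WT, were left out of class values. The authors' own class assignment was not used here.

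CPM were computed from UMIs summed within a class of 1 library, over all its UMIs. Shares carry Clopper-Pearson intervals and ratios exact conditional binomial intervals (scipy 1.17.1), at 95%, and both cover counting error only. With 1 library a group there is no p-value. In simulated counts with 2-fold changes in 200 genes, the rule recovered 77% of them in ShhN and 65.5% in WT. Of those with at least 2000 UMIs it recovered 100% in each. The simulation held counting error alone, with no spread between cells or embryos. Leiden clusters (leidenalg 0.10.2, 2000 variable genes) and edgeR 4.0.16 in R 4.3.3, for TMM factors, served alternatives. Promoter windows came from RefSeq and gene positions from GENCODE. The protocol's strand handling in counting is not stated, so overlapping antisense genes could not be told apart.

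Members, lists and markers were chosen with earlier results of these data known. Named members were the 6 with most UMIs, the 4 highest and 4 lowest in each main comparison, the paralog pairs and those with fewest UMIs. Matching genes below the UMI minimum were named too, with up to 4 highest and lowest of each companion list. Some genes that meet the rule are not reported here, and members lower in both libraries and those named at lineage steps were added after their values were seen.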

Additional observations from a re-analysis of the deposited data

How the results depend on the processing

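The summed ratios of neurons over radial glia, and of ShhN over WT in radial glia, intermediate progenitors, migrating neurons and excitatory neurons, kept their direction under each alternative run. The other summed ratios were not rerun. In the bin of 2300 to 4500 UMIs alone, radial glia had 22.04% in ShhN and 22.6% in WT, against the direction of the whole class. For neurons over radial glia, the summed log2 ratio was -0.33 in ShhN and -0.34 in WT. It was -0.32 and -0.32 with doublets kept, -0.32 and -0.30 at 5% mitochondrial UMIs, -0.29 and -0.25 in cells of 4500 to 9000 UMIs, -0.32 and -0.36 with equal weight per cell, -0.41 and -0.40 over other nuclear genes, -0.22 and -0.24 with TMM, -0.35 and -0.35 after free RNA was subtracted, -0.29 and -0.38 with Leiden clusters, -0.18 and -0.25 with the gate on thinned cells, and -0.32 and -0.33 with 2 more marker UMIs, ShhN before WT in each pair. Members lower, 17 in ShhN and 15 in WT, numbered 27 and 27 over other nuclear genes, 8 and 7 with TMM, 6 in ShhN with the thinned gate, 26 in WT with Leiden clusters, and 2 and 2 by a 2-fold rule. Shares of all genes called in these settings are not given, so the counts are not read as changes in the members alone. The median of all genes also moved, by -0.08 in ShhN and -0.06 in WT over other nuclear genes. With TMM it moved by 0.12 in ShhN and 0.10 in WT. The ratio of ShhN over WT, 0.15 in radial glia and 0.15 in excitatory neurons, was 0.16 in radial glia and 0.14 in neurons at 5% mitochondrial UMIs, 0.18 and 0.14 at 4500 to 9000 UMIs (with 1 member higher in radial glia), 0.14 and 0.18 with equal weight, 0.19 and 0.18 over other nuclear genes, 0.18 and 0.23 with TMM, 0.080 and 0.17 with Leiden clusters, 0.070 and 0.15 with the thinned gate, and 0.14 and 0.15 with 2 more marker UMIs. In neurons it was 0.15 after free RNA was subtracted. Leaving out cells over 1% globin, an alternative chosen after seeing the data, gave 0.13 in radial glia, 0.15 in neurons and -0.35 for neurons over radial glia in WT. The causes of these shifts were not tested.

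Radial glia and non-dividing intermediate progenitors stood above the 3 neuron classes in 22 of 22 pairs of a library and a setting. Dividing intermediate progenitors did not do so in each setting. With Leiden clusters they had 18.7% in ShhN and 16.8% in WT, below the highest neuron class at 19.5% in ShhN and 16.9% in WT. No paired analysis was possible because the 4 samples of a group share 1 matrix, and for the same reason no sample could be left out. The thinned gate kept 153 ShhN and 91 WT radial glia. Depth limits the rarest members, such as Rpl29, whose intervals are wide in small classes.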

Other observations

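Among the Leiden clusters, the highest member shares were not in radial glia. A cluster led by S100a10, 2900009J06Rik and Gm10263, which took no class name, had 28.5% in ShhN (71 cells) and 26.1% in WT (68 cells), at a median depth of 2977 UMIs in ShhN and 2941.5 in WT. An intermediate progenitor cluster led by Neurod4 had 27.3% in ShhN (135 cells) and 23.1% in WT (294 cells), at 5713 UMIs in ShhN and 5890 in WT. The radial glia cluster, led by Aldoc, had 22.8% in ShhN (250 cells) and 21.6% in WT (179 cells).

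The members' ratios of neurons over radial glia in the ShhN library had a Pearson correlation of 0.95 with those in the WT library, over the 78 members with more than 50000 UMIs. The points of a library share its cells and depth, so this is a description with no test.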
